A study of Mus musculus with 18 samples.

Results

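Hepatocyte identity is held by a small network of transcription factors, and the mRNA levels of 9 of them were followed here in mouse livers injured by monocrotaline: Hnf4a, Nr5a2, Prox1, Foxa1, Foxa2, Foxa3, Cebpa, Cebpb and Onecut1. The members were taken by symbol from the probes of the mRNA arrays, and all 9 were found, on 11 probes. Of these, 8 were among the 24803 genes tested. Monocrotaline (MCT) is a pyrrolizidine alkaloid made by plants, and liver enzymes convert it into a reactive product that is known to damage the lining of the hepatic sinusoids. Male C57BL/6 mice aged 6 weeks were fasted for 12 h and given a single intragastric dose of MCT at 270 mg/kg (the MCT 270 group) or 330 mg/kg (MCT 330), or saline (control), with 8 mice in each group. Livers were collected after 48 h. All groups shared the fast, and no group carried a genetic change. Whole-liver RNA was hybridised to 9 single-colour arrays, 3 per group. The 9 miRNA arrays of the 18 in the series were not used here.

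The network works through mutual support: its factors occupy one another's regulatory regions and, together, those of the genes for plasma proteins, bile acid synthesis, gluconeogenesis and urea synthesis. Hnf4a and Nr5a2 are nuclear receptors, Foxa1, Foxa2 and Foxa3 are winged-helix factors that can open compact chromatin, Cebpa and Cebpb are leucine-zipper factors, Onecut1 (HNF6) is a cut-homeodomain factor, and Prox1 is a homeodomain protein that binds Nr5a2 and Hnf4a as a corepressor. In adult liver Hnf4a is regarded as the hub of the network, and Cebpb is known for its part in the acute phase response and in regeneration.

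The arrays did not hold 9 distinguishable samples, and this bears on every result. Replicates 2 and 3 of each group differed by less than repeated spots of one probe on an array did, with a ratio of the robust spreads of 0.589 in the control, 0.434 in MCT 270 and 0.682 in MCT 330. The array headers also give those pairs the same array code. MCT 330 replicate 1 differed from replicates 2 and 3 of its group by ratios of 0.906 and 0.942, whereas replicate 1 of the control group (3.57 and 3.71) and of MCT 270 (2.53 and 2.59) stood clearly apart. Arrays under a ratio of 1 were therefore counted as 1 sample, so that the control and MCT 270 groups hold 2 samples each and the MCT 330 group holds 1. The MCT 330 sample has no spread of its own, and its tests borrow that of the other groups. On the plain SD the ratios of MCT 330 replicate 1 were 1.22 and 1.29, so that this join is the least certain. That array also had 1568 spots more than 1 on the log2 scale from both others, beside 257 and 315 for replicates 2 and 3. Each p-value rests on the spread within the 2 control and the 2 MCT 270 samples, which limma draws toward the spread typical of all genes. Per array, 64.0 to 80.9% of probes lay well above background and no probe was saturated. Alb, Apoa1 and Apoa2, which define hepatocytes, were well above background on all 9 arrays. The number of arrays limits the precision.

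Values are log2 processed signal minus the log2 of the 75th percentile of that array, so that 0 is the level of a probe at that percentile, and a difference of 1 is a 2-fold change. Groups were compared with limma (lmFit and eBayes), and a gene was called where its Benjamini-Hochberg adjusted p over all 24803 genes was under 0.05. Because probes differ in how well they hybridise, the levels of different factors are not ranked against one another.

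The stretches of DNA before the starts of Hnf4a, Prox1 and Nr5a2 are shown first, because Hnf4a and Prox1 were the members called lower at the higher dose and Nr5a2 was the member furthest in the opposite direction from control at both doses. All 9 members matched the RefSeq promoter table (GRCm38.p6), with 14 start sites. Each sequence is the 250 bases before a start, 5′ to 3′ on the strand of the gene, and ends just before the first transcribed base. Hnf4a has 2 starts on the + strand, at chr2:163506607-163506856 (the upstream one) and chr2:163546905-163547154 (the downstream one, the promoter used mainly in adult liver), 40298 bases apart. Prox1 has 2 on the − strand, at chr1:190170828-190171077 and chr1:190169516-190169765, as has Nr5a2, at chr1:136960449-136960698 and chr1:136953631-136953880. Capitals mark matches to 6 motifs, searched on either strand, and no matches overlapped. The core of an HNF1 site was written as GTTAAT. The motif searched for HNF6, the product of Onecut1, was ATCAAT. Foxa proteins were given the motif TGTTTNC. The motif of the C/EBP family was TTGCNNAA. For nuclear receptors the shared core element was AGGTCA. The box bound by the general initiation machinery was TATAAA.

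Hnf4a upstream: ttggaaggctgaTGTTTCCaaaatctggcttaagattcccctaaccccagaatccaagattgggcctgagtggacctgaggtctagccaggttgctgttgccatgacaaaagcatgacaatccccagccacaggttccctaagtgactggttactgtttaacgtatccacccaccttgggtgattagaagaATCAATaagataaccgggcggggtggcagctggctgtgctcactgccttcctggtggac
Hnf4a downstream: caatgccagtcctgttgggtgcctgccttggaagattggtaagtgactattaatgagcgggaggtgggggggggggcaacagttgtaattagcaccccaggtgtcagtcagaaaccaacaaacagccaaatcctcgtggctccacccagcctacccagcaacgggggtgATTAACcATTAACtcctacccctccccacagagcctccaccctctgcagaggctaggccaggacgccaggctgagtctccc
Prox1 upstream: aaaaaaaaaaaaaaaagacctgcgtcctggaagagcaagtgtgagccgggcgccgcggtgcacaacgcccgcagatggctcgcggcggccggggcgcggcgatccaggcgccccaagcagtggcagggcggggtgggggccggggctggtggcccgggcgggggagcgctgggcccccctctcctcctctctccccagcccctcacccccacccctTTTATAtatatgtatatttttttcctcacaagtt
Prox1 downstream: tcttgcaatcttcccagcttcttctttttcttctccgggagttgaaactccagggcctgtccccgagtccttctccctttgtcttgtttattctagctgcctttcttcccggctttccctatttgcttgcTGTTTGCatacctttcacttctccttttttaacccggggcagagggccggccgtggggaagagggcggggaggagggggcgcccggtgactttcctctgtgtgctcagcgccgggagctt
Nr5a2 upstream: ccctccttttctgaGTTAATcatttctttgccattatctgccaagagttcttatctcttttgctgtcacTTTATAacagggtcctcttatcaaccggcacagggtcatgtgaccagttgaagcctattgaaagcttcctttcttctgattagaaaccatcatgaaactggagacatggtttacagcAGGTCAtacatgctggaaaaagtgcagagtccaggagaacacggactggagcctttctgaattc
Nr5a2 downstream: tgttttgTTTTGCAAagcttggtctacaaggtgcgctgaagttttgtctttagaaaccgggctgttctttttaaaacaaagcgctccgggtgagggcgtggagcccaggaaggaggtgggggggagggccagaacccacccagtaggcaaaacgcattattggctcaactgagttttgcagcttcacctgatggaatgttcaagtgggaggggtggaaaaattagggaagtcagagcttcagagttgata

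The downstream Hnf4a window held 2 copies of the HNF1 core on the reverse strand, which begin 81 and 74 bases before the start. The upstream Hnf4a window held an HNF6 match 59 bases and a FOXA match 238 bases before its start, both on the printed strand. The upstream Prox1 window held the TATA motif at 34 bases on the reverse strand, and the downstream window a FOXA match at 120 bases on the printed strand. The upstream Nr5a2 window held the nuclear receptor core at 64 bases and the HNF1 core at 236 bases, both on the printed strand, and a TATA match on the reverse strand at 181 bases. Its downstream window held a C/EBP match on the reverse strand at 243 bases. Such matches are frequent: of 32851 windows of this length, 6.43% held the HNF1 core, 6.72% the HNF6 motif, 17.8% the FOXA motif, 9.56% the C/EBP motif, 14.0% the nuclear receptor core and 12.4% the TATA box. Among the 14 windows of the members the counts were 3, 2, 3, 1, 1 and 5, in the same order. A match describes the letters only, and which start was used was not measured, since the probes were compared per gene.

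Hnf4a, the nuclear receptor whose targets run from apolipoproteins to clotting factors, fell at the higher dose. Its level was 6.67, 6.95 and 6.96 on the control arrays, 6.28, 6.20 and 6.20 at MCT 270, and 5.77, 5.74 and 5.74 at MCT 330. The 3 groups lay one below the other with no overlap, the control highest and MCT 330 lowest. At MCT 330 it was 2.08-fold lower than in the control (log2 fold change -1.06 ± 0.22 SE, limma adjusted p = 0.0255, 1 sample against 2). At MCT 270 the log2 fold change was -0.57 ± 0.18 (unadjusted p = 0.0266, limma adjusted p = 0.21, 2 samples against 2), with a 95% interval of -1.03 to -0.10. Between the doses it was -0.49 ± 0.22 (limma adjusted p = 0.173), so that the step from 270 to 330 mg/kg did not pass the test. In whole-liver RNA, fewer hepatocytes and less RNA per hepatocyte cannot be told apart, for Hnf4a and for every other member. Every member tested lay apart from the control at MCT 330, also Cebpa and Cebpb, which were not called, by 0.11 between the nearest samples. With 1 sample against 2 there, or 2 against 2 at MCT 270, a lack of overlap does not set a member apart. Arrays joined as 1 sample add nothing to it. The share of all genes without overlap was not computed for any comparison.

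Prox1, the corepressor, was the other member that fell. The control arrays gave -3.95, -3.64 and -3.93, the MCT 270 arrays -4.43, -4.25 and -4.46, and the MCT 330 arrays -5.09, -5.12 and -5.11. As for Hnf4a, the groups did not overlap and MCT 330 was lowest. The level at MCT 330 was 2.36-fold below the control (log2 fold change -1.24 ± 0.20 SE, limma adjusted p = 0.0148). At MCT 270 the log2 fold change was -0.53 ± 0.16 (unadjusted p = 0.0238, limma adjusted p = 0.202), and between the doses -0.71 ± 0.20 (limma adjusted p = 0.063). Prox1 was dim, with a processed signal of 20 to 43 per array, though well above background on all 9. The size of its change depended on the background correction: with the normexp method and quantile normalization the log2 fold change at MCT 330 was -0.29 and no longer passed (limma adjusted p = 0.0964).

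Both calls are limited by the few samples. Leaving out MCT 270 replicate 1, which takes away one of the 2 pairs of samples that give the spread, left the log2 fold changes at MCT 330 as they were and raised the limma adjusted p to 0.0764 for Hnf4a and 0.0538 for Prox1, and without a filter on dim probes Hnf4a had an adjusted p of 0.067. Quantile normalization reduced the log2 fold changes to -0.66 for Hnf4a and -0.82 for Prox1, both still called (limma adjusted p = 0.0436 and 0.0463).

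Lymphatic endothelium is another source of Prox1, which marks it. Of its 5 listed markers, 4 were on the array, among them Lyve1, a gene that sinusoidal endothelium also uses. Their summed signal, as a multiple of the 75th percentile, was 1.88 to 2.62 in the control. It was 1.41 to 1.8 at MCT 270 and 2.31 to 2.34 at MCT 330. On the log2 scale, Pdpn, Flt4 and Reln read at most -5.80, -2.81 and -3.23 in the control. Lyve1 thus made up most of the sum. The log2 fold changes at MCT 330 were 2.01 for Pdpn, 0.13 for Lyve1, -0.73 for Flt4 and -2.16 for Reln. None of the 4 tested was called at MCT 330 (1 at an unadjusted p under 0.05, higher), where limma called 33.5% of all genes. Pdpn, which defines these vessels, was not well above background on any control array. Their part in the Prox1 values was not tested.

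**Figure D1:**
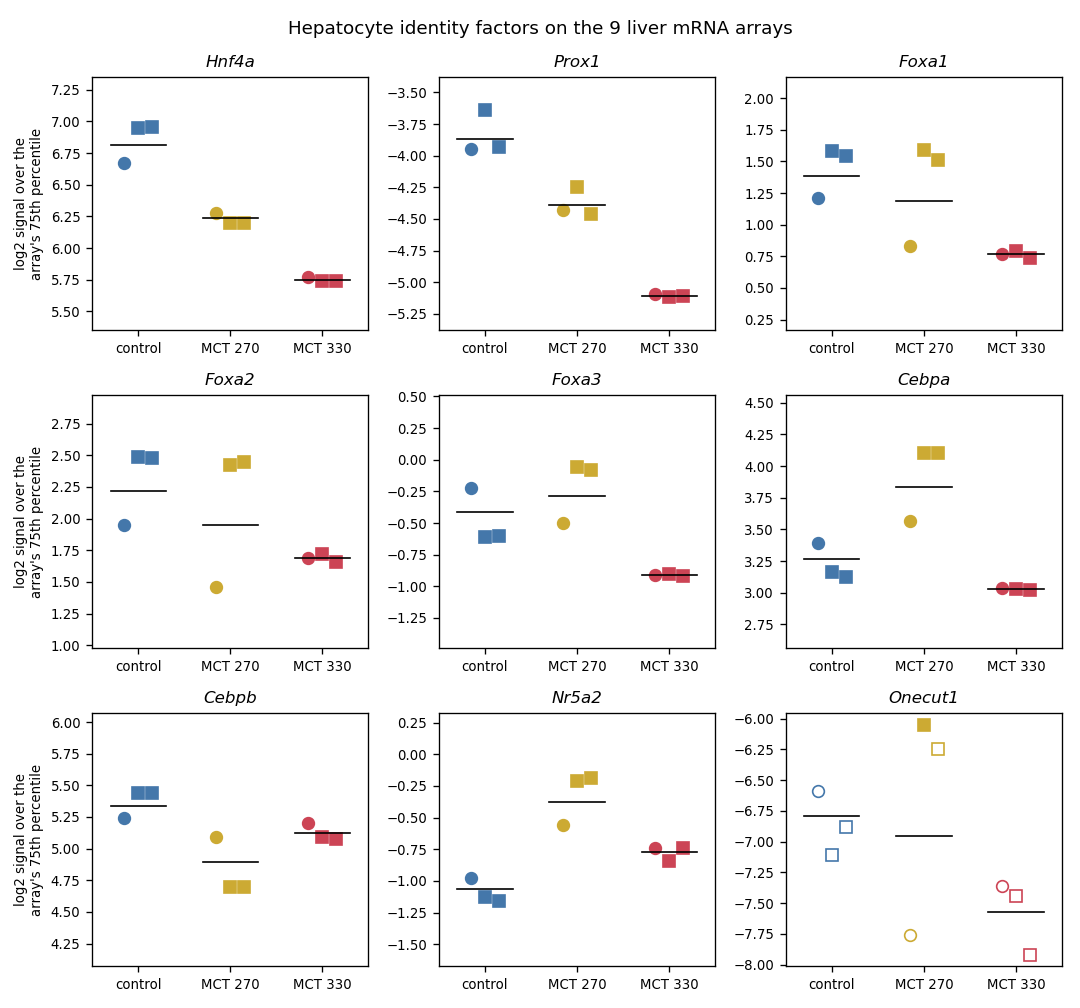
Level of each factor on each array, as log2 processed signal over the 75th percentile of the array, by group. Circles are replicate 1 and squares replicates 2 and 3 of a group, filled where the probe was well above background, and lines are means over the samples after joining arrays. Hnf4a and Prox1 step down from control (6.67 to 6.96 for Hnf4a) to MCT 330 (5.74 to 5.77), while Onecut1 is filled on 1 array.

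Nr5a2, which drives bile acid and cholesterol genes and is the partner Prox1 represses, did not follow Hnf4a. Its brighter probe read -0.98, -1.13 and -1.16 in the control, -0.56, -0.21 and -0.19 at MCT 270, and -0.74, -0.84 and -0.74 at MCT 330. All treated arrays lay above all control arrays, and MCT 270 lay highest. The log2 fold change at MCT 270 was 0.69 ± 0.20 (unadjusted p = 0.0196), which did not pass over all genes (limma adjusted p = 0.189). At MCT 330 it was 0.29 ± 0.24 (limma adjusted p = 0.395), with a 95% interval of -0.34 to 0.92. The second Nr5a2 probe gave 0.52 ± 0.18 at MCT 270 and 0.63 ± 0.23 at MCT 330 (limma adjusted p = 0.228 and 0.0914 over 29946 probes). The probes disagreed on the step between the doses, with -0.40 on the brighter and 0.12 on the other, so that the order of the 2 doses is not settled for Nr5a2. Exocrine pancreas uses Nr5a2 too. The summed signal of its 7 markers was 4.58 to 6.26 in the control, 4.35 to 4.67 at MCT 270 and 2.27 to 2.29 at MCT 330. At MCT 330 limma called 3 of the 6 tested lower and 0 higher, beside 24% and 9.49% of all genes. Of the 7, 4 were well above background on all control arrays and 4 on all MCT 330 arrays. Cela1, Cela3b and Prss2 read at most -3.54, -5.04 and -5.16 on the log2 scale in the control, so that other markers carried the sum. The part of the exocrine pancreas in the Nr5a2 values was not tested.

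The Foxa factors, which bind early in liver development and keep target enhancers accessible, were not called at either dose. Foxa1 read 1.21, 1.58 and 1.54 in the control, 0.83, 1.59 and 1.51 at MCT 270, and 0.77, 0.79 and 0.74 at MCT 330. MCT 270 replicate 1 lay near the MCT 330 arrays and the other MCT 270 arrays near the control. The log2 fold change was -0.19 ± 0.30 at MCT 270 and -0.61 ± 0.37 at MCT 330 (limma adjusted p = 0.769 and 0.252). Without MCT 270 replicate 1 the first of these turned to 0.17.

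Foxa2 repeated that pattern. Its brighter probe read 1.95, 2.49 and 2.48 in the control, 1.46, 2.42 and 2.45 at MCT 270, and 1.69, 1.72 and 1.66 at MCT 330. Again MCT 270 replicate 1 stood apart from the other MCT 270 arrays, by 0.97 between the 2 samples. Control replicate 1 also lay below the other control arrays, by 0.54 between the samples for Foxa2 and 0.36 for Foxa1. The log2 fold change was -0.27 ± 0.39 at MCT 270, which turned to 0.22 without replicate 1, and -0.53 ± 0.48 at MCT 330 (limma adjusted p = 0.746 and 0.43). The second probe gave -0.32 and -0.68. Foxa3, which takes part in adult glucose metabolism, read -0.22, -0.61 and -0.60 in the control, -0.50, -0.06 and -0.08 at MCT 270, and -0.91, -0.90 and -0.92 at MCT 330. Its MCT 330 arrays were below all others, with a log2 fold change of -0.50 ± 0.30 against the control (limma adjusted p = 0.249) and a 95% interval of -1.27 to 0.28. A fall of 2-fold lies inside the intervals of all 3 Foxa genes at MCT 330, as does no change.

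Cebpa, which restrains hepatocyte division and drives metabolic genes, was highest at the lower dose. It read 3.39, 3.16 and 3.12 in the control, 3.57, 4.10 and 4.10 at MCT 270, and 3.04, 3.03 and 3.02 at MCT 330. The MCT 270 arrays lay above all others. The log2 fold change was 0.57 ± 0.24 at MCT 270 (limma adjusted p = 0.311) and -0.24 ± 0.30 at MCT 330 (0.572). Between the doses it was -0.80 ± 0.30, with an unadjusted p of 0.0463 that did not pass over all genes (limma adjusted p = 0.122).

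Cebpb, the acute phase member, lay lowest at MCT 270. It read 5.24, 5.44 and 5.44 in the control, 5.09, 4.70 and 4.70 at MCT 270, and 5.20, 5.09 and 5.08 at MCT 330. Control and MCT 270 did not overlap, while MCT 330 replicates 2 and 3 lay within 0.01 of MCT 270 replicate 1. The log2 fold change was -0.45 ± 0.21 at MCT 270 (limma adjusted p = 0.337). At MCT 330 it was -0.22 ± 0.26 (limma adjusted p = 0.543), and the direction turned with the scaling, to 0.14 with quantile normalization and 0.17 with normexp correction. Neutrophils and monocytes use C/EBP factors as well: the summed signal of 6 neutrophil markers was 8.63 to 11.6 in the control, 8.17 to 9.15 at MCT 270 and 39.9 to 41.2 at MCT 330, and that of 6 monocyte markers 0.938 to 1.17, 1.22 to 1.67 and 9.85 to 10.3. At MCT 330 limma called 5 of the 6 neutrophil markers and 4 of the 6 monocyte markers higher, and 0 lower. The shares of all genes there were 9.49% higher and 24% lower. S100a8 and S100a9, abundant in neutrophils, were well above background in all groups. In the control, the neutrophil marker Retnlg and the monocyte marker Ccr2 were each well above background on 1 array only. Of the 6 neutrophil markers 3, and of the 6 monocyte markers 4, were well above background on all control arrays. The part of these cells in the Cebpa and Cebpb values was not tested.

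Onecut1 could not be followed. Its processed signal was 6.86, 3.85 and 4.24 in the control, 2.38, 10.4 and 8.5 at MCT 270, and 4.22, 4.02 and 2.91 at MCT 330. It was well above background on 1 of the 9 arrays, MCT 270 replicate 2, and was left out of the test for that reason. No fold change is given.

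As a group, 0 of the 8 members tested were called at MCT 270, where limma called 0% of all genes. At an unadjusted p under 0.05, 3 of 8 members passed (Hnf4a and Prox1 lower, Nr5a2 higher), beside 18.6% of all genes (9.81% higher and 8.78% lower). At MCT 330, 2 of 8 were called, both lower, where 33.5% of all genes were called, 24% lower and 9.49% higher. The members' share is near that background, so that the count of calls does not set them apart. Between the doses 0 of 8 were called, beside 22.1% of all genes. At an unadjusted p under 0.05, 2 passed, Cebpa and Prox1, beside 39% of all genes. With the 9 arrays taken as 9 samples, limma called 5 members at MCT 270, 5 at MCT 330 and 6 between the doses, beside 9550, 18029 and 16101 of 24681 genes, so that these shares too have to be read against a large background.

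The median log2 fold change of the 8 members was -0.23 at MCT 270 and -0.51 at MCT 330, and that of all genes tested -0.02 and -0.25. Against that median of all genes, Hnf4a stood at -0.81 and Prox1 at -0.99 at MCT 330, Foxa1 at -0.36, Foxa2 at -0.28, Foxa3 at -0.24, Cebpa at 0.01, Cebpb at 0.03 and Nr5a2 at 0.54. Cebpa and Cebpb thus lay at the middle of all genes. The overall shift depended on the scaling: the median of all genes was -0.05 with quantile normalization and -0.03 with normexp correction. The split of all called genes moved with it, from 2355 higher and 5943 lower to 3094 and 4323 with quantile normalization and to 3718 and 3972 with normexp correction.

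**Figure D2:**
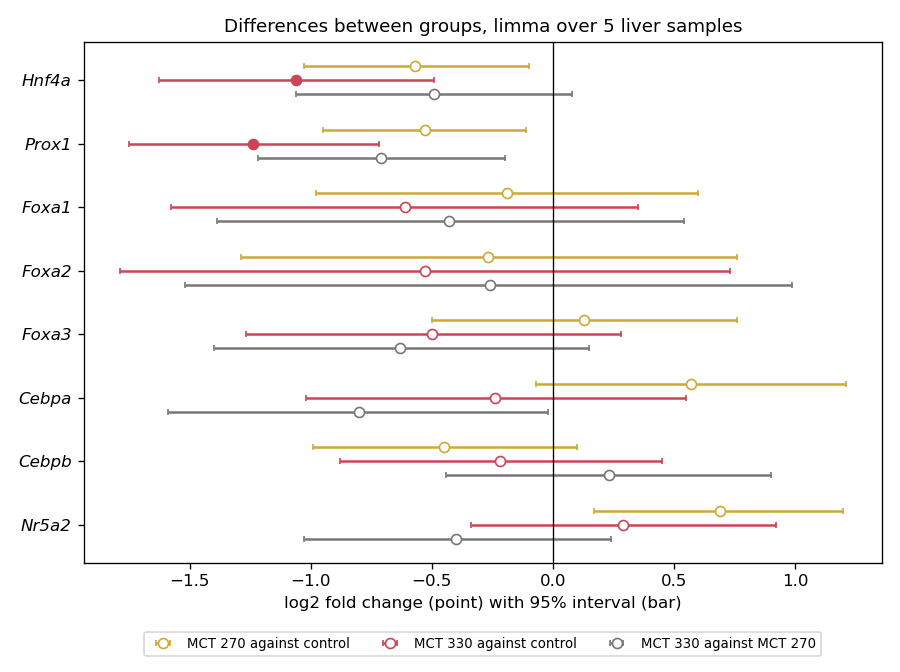
Log2 fold change of the 8 members tested, as points with 95% intervals, for MCT 270 against control, MCT 330 against control and MCT 330 against MCT 270, filled where the limma adjusted p was under 0.05. The filled points are Hnf4a at -1.06 and Prox1 at -1.24, both at MCT 330 against control.

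**Figure D3:**
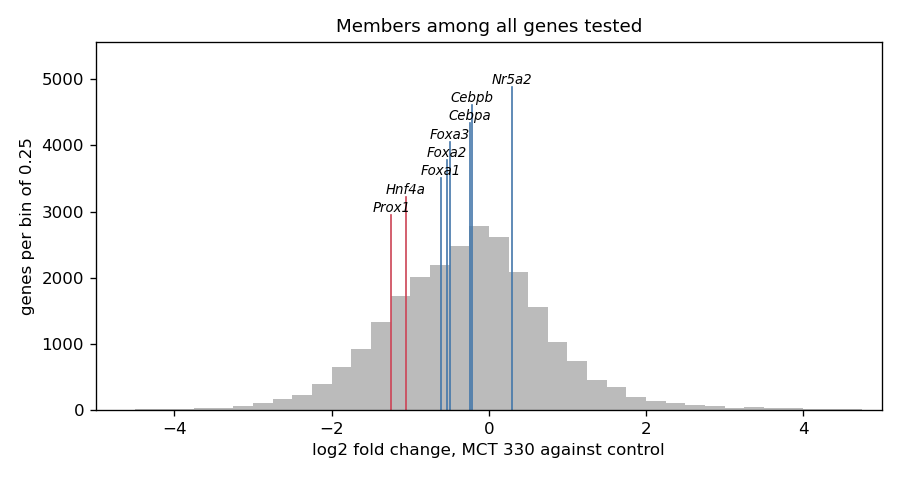
Number of genes tested per bin of 0.25 in log2 fold change, MCT 330 against control, with the 8 members as lines (red where called). Hnf4a and Prox1 lie left of the median of all genes (-0.25), Cebpa and Cebpb next to it and Nr5a2 at 0.29, and genes beyond 5 in either direction lie outside the axis.

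At MCT 270 the arrays could also be compared within a scan, because control and MCT 270 arrays shared scans. In the scan with 2 arrays of each group and in the scan with 1 of each, the MCT 270 minus control difference was -0.56 and -0.76 for Hnf4a, -0.55 and -0.52 for Prox1, 0.67 and 0.97 for Nr5a2, 0.56 and 0.98 for Cebpa, -0.45 and -0.74 for Cebpb and 0.14 and 0.52 for Foxa3. Foxa1 gave -0.18 and -0.03 and Foxa2 -0.28 and -0.03. The scans are not independent, since the scan with 1 array of each group holds replicate 3, which was joined with replicate 2 of the other scan as 1 sample. The MCT 330 arrays shared no scan with another group, so scan and dose cannot be told apart there.

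Likeness between members was measured over the 5 samples. The distance between members, after centring each gene on its mean, was smallest for Hnf4a and Prox1 (0.232 on the log2 scale), followed by Foxa1 and Foxa2 (0.259), with all other pairs at 0.454 or more, and it was largest for Prox1 and Nr5a2 (1.5). By the same measure, over 13740 candidate genes, those nearest to Hnf4a were Bmp1 (0.0526), Ndufb9 and Ndufb5 (both 0.0555), the latter being subunits of mitochondrial complex I. Nearest to Prox1 were Cenpx (0.0662), Col18a1 (0.0716) and Apoc4 (0.075). Foxa1 and Foxa2 shared the same 3 nearest genes, Mlxipl, Vgll4 and Tpsg1, at 0.148 to 0.182 from Foxa1 and 0.255 to 0.369 from Foxa2, with Mlxipl encoding the carbohydrate-responsive factor ChREBP. Nearest to Foxa3 was Prkaca (0.0953), to Cebpa Clvs1 (0.131), to Cebpb Rdh13 and Foxo1 (both 0.139) and to Nr5a2 Dnajc3 (0.0593). With 5 samples these distances describe the livers at hand and carry no test.

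The lists of related genes below are read against the same background at MCT 330, where limma called 24% of all genes lower and 9.49% higher with a median of -0.25, and their counts and medians depend on the scaling. Of 24 other liver transcription factors tested, limma called 9 lower and 2 higher, with a median log2 fold change of -0.80. The share called higher is near that of all genes. With quantile normalization 8 were called lower and 2 higher (median -0.72). Ppara, the fatty acid receptor, fell (log2 fold change -1.66 ± 0.19 SE, limma adjusted p = 0.00936). Nr2f2, an orphan nuclear receptor, and Tbx3, a T-box factor of hepatoblast growth, fell as well, by log2 fold changes of -1.68 ± 0.21 and -2.59 ± 0.36 (limma adjusted p = 0.0103 and 0.012). Klf15, a fasting-induced factor, followed with -1.24 ± 0.20 (limma adjusted p = 0.015). The 2 called higher, named after their values were seen, were Cebpd (1.20 ± 0.24, limma adjusted p = 0.0247) and Cebpg (0.87 ± 0.22, limma adjusted p = 0.0415), both relatives of Cebpa and Cebpb.

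Genes known as Hnf4a targets were called lower in 12 of 26 and higher in 0 at MCT 330, with a median of -0.76 (9 lower and a median of -0.57 with quantile normalization, 12 and -0.57 with normexp correction). Cyp8b1 and Cyp7a1, enzymes of bile acid synthesis that are also Nr5a2 targets, fell, with log2 fold changes of -4.16 ± 0.52 and -3.43 ± 0.48 (limma adjusted p = 0.0102 and 0.0122). Otc, an enzyme of the urea cycle, gave -2.13 ± 0.19 (limma adjusted p = 0.00874), and Nr1i3, the xenobiotic receptor CAR, -2.39 ± 0.39 (limma adjusted p = 0.0156). Of 9 Nr5a2 targets 5 were called lower and 0 higher, with a median of -1.37 (-1.10 with quantile normalization, with the same counts). Abcg8, a sterol exporter subunit, and Scarb1, the HDL receptor, fell by log2 fold changes of -1.63 ± 0.25 and -1.27 ± 0.22 (limma adjusted p = 0.0141 and 0.018). Nr5a2 itself was not lower, as given above.

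Of 8 Foxa targets on the array, 1 was called in each direction, with a median of -0.63. With quantile normalization 1 was called higher and 0 lower, and the median was -0.27 (-0.29 with normexp correction, with 1 call each way). Afp, the fetal serum protein, rose by 1.69 ± 0.26 (limma adjusted p = 0.0139), and Apoa1, the main protein of HDL, fell (-1.01 ± 0.20, limma adjusted p = 0.0219). Pck1, the enzyme that commits carbon to gluconeogenesis, gave -1.51 ± 0.42 and Ttr, the thyroxine carrier, -0.61 ± 0.22, neither called (limma adjusted p = 0.0523 and 0.0943).

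The C/EBP lists went opposite ways. Of 10 metabolic targets, 4 were called lower and 0 higher at MCT 330, with a median of -1.14. Quantile normalization and normexp correction each left 2 of the 10 called lower, with medians of -0.85 and -0.79. The 4 called with the 75th percentile scaling were G6pc, the last enzyme of glucose release (log2 fold change -3.76 ± 0.78), Gys2, liver glycogen synthase (-1.81 ± 0.22), the clotting factor gene F9 (-1.32 ± 0.28) and the glucose transporter gene Slc2a2 (-0.95 ± 0.22) (limma adjusted p = 0.0256, 0.0099, 0.0263 and 0.0342). Of 10 acute phase targets, 6 were called higher and 0 lower, with a median of 1.89 (5 higher with quantile normalization and 8 with normexp correction, both with a median of 2.13). Saa3 rose by 3.81 ± 0.41, Serpina3n by 1.91 ± 0.24, Orm1 by 1.61 ± 0.21 and Orm2 by 1.87 ± 0.26 (limma adjusted p = 0.00892, 0.0105, 0.0113 and 0.012). Neutrophil and monocyte markers were higher in the same sample, as given for Cebpb, and their part in the acute phase values was not tested.

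Of 11 proteins known to oppose the network, 2 were called higher and 2 lower at MCT 330, shares that are not far from those of all genes. The median was 0.07, and 0.31 with quantile normalization. Ddit3 (CHOP), which dimerises with C/EBP proteins and blocks them, rose by 2.20 ± 0.19, and Trib1, which leads C/EBP alpha to degradation, rose by 1.01 ± 0.23 (limma adjusted p = 0.00874 and 0.0318). Id3, an inhibitor of helix-loop-helix factors, and Cux1, a repressor with cut and homeodomain repeats, fell by log2 fold changes of -3.14 ± 0.27 and -1.67 ± 0.20 (limma adjusted p = 0.00874 and 0.0099). Of 6 fetal liver genes tested, 2 were called higher and 2 lower, with a median of -0.50. With quantile normalization 2 were called higher and 1 lower (median -0.24), and with normexp correction the median was -0.09. Cd24a, which marks hepatic progenitors and also blood cells, rose by 2.37 ± 0.28 (limma adjusted p = 0.00961), along with Afp. The growth factor gene Igf2 and the hepatoblast gene Dlk1 fell by log2 fold changes of -1.46 ± 0.27 and -1.07 ± 0.22 (limma adjusted p = 0.0199 and 0.0255).

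At MCT 270, 0 genes of these 8 lists were called by limma. At an unadjusted p under 0.05, where 9.81% of all genes were higher and 8.78% lower, 5 of 10 acute phase targets were higher and 0 lower (median 0.88), and 5 of 11 antagonists were lower and 0 higher (median -0.34). Of the 26 Hnf4a targets, 2 were lower and 1 higher (median -0.24), and of the 9 Nr5a2 targets, 2 were lower and 1 higher (median 0.39). The counts of Hnf4a targets are at or below the background. Several lists share genes: 14 of the 26 Hnf4a targets and 7 of the 9 Foxa targets stand in another list, so that their counts are not separate evidence.

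**Figure D4:**
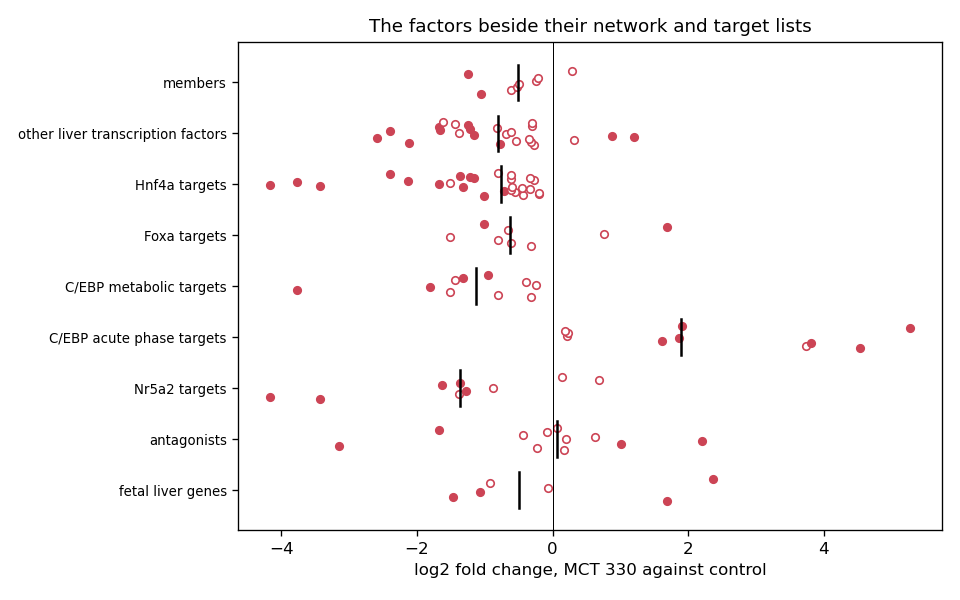
Log2 fold change, MCT 330 against control, of the members and of the genes in 8 lists of their network, 1 point per gene tested, filled where the limma adjusted p was under 0.05, with a bar at each median. The members (median -0.51) span -1.24 to 0.29, the acute phase targets lie to the right of 0 (median 1.89) and the metabolic targets to the left (median -1.14).

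Markers of the liver's cell types are given beside these results. At MCT 270, 0 markers of any list were called by limma, and the sums of hepatocyte, bile duct and lymphocyte markers overlapped the control. All 11 hepatocyte markers on the array were well above background on all arrays, and their summed signal was 2580 to 2930 in the control, 2100 to 2660 at MCT 270 and 1580 to 1810 at MCT 330. At MCT 330, limma called 5 of the 11 lower and 0 higher, with a median of -0.71, beside -1.06 for Hnf4a and -1.24 for Prox1. With quantile normalization 2 of the 11 were called lower and the median was -0.28, beside -0.66 for Hnf4a and -0.82 for Prox1, and with normexp correction 5 were called and the median was -0.39. Alb ranged from 8.97 to 9.02 in the control and 8.53 to 8.77 at MCT 330, and Apoa1 from 6.09 to 6.23 and 5.12 to 5.15. The log2 fold changes of the 11 hepatocyte markers at MCT 330 ran from -2.31 to -0.28. Those of Hnf4a and Prox1 lay within that range. Sinusoidal endothelial markers summed to 26.9 to 28.8 in the control, 8.57 to 10.7 at MCT 270 and 3.98 to 4.15 at MCT 330, and 5 of 5 were called lower at MCT 330. Kupffer cell markers summed to 19.1 to 22.1, 11.3 to 12.5 and 7.59 to 7.72, with 4 of 5 called lower at MCT 330. Stellate cell markers summed to 23.8 to 25.2, 9.38 to 11.8 and 8.55 to 8.64, with 3 of 6 called lower and 1 higher. At MCT 270 the log2 fold changes of the 6 ran from -1.53 to 0.82, with a median of -0.08. The lower sum at MCT 270 thus did not stand for the list as a whole. Bile duct markers summed to 1.86 to 3.15, 1.88 to 2.57 and 4.63 to 4.71, with 1 of 7 called in each direction. Lymphocyte markers summed to 19 to 24.3, 17.1 to 23.2 and 9.61 to 10.9, with 1 of 6 called higher and 2 lower. The median log2 fold change of the lymphocyte markers at MCT 330 was -0.01, although their sum was lower there. The bile duct marker Krt7 was not well above background on any control array. The part of these cell types in the members' values was not tested.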

How the data were processed

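Per the file headers, the authors read the arrays with Agilent Feature Extraction (version 11.0.1.1). The deposited intensity had already been background-subtracted and detrended by that software. Control spots and outlier flags were left out. On MCT 330 replicates 1, 2 and 3, 1568, 257 and 315 spots differed from both other arrays of the group by more than 1 on the log2 scale. Only 82, 1 and 6 of these spots (none of a member) were removed for that reason. Of 33258 systematic names, 21464 matched a symbol. The others were kept under their systematic name, so that the 24803 genes tested include entries without a symbol. The signal was taken as log2 minus the 75th percentile of its array, a probe was kept if every array of some group showed it well above background, and a gene took its brightest probe. Arrays differing by no more than repeated spots were averaged. The 5 samples were fitted with limma 3.58.1 in R 4.3.3, a step also tested on simulated data.

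Alternatives covered scaling, background (normexp with offset 50 on the median signal, since no mean signal was in the columns), filters, probes, scans, blocks and each replicate left out. Genes named were all members, up to 4 per list by smallest p at MCT 330, the first 3 markers of a list, and the 3 genes nearest to each member. The members and lists were chosen with earlier results of these data known.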

Additional observations from a re-analysis of the deposited data

How the results depend on the processing

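Of the members' log2 fold changes, 4 turned sign under an alternative: Foxa1 (0.17, with -0.37 as the lowest value over the replicates left out) and Foxa2 (0.22, lowest -0.54) at MCT 270 without MCT 270 replicate 1, and Cebpb at MCT 330 with quantile normalization (0.14) or normexp correction (0.17). Another 420 kept direction and side of the threshold, 44 passed only under the alternative, mostly with arrays taken as separate samples, and 4 lost their call (Hnf4a without a dim-probe filter, Prox1 with normexp correction, and both without MCT 270 replicate 1).

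With 9 arrays as 9 samples, limma called 9550 genes and 5 members at MCT 270, 18029 and 5 at MCT 330, and 16101 and 6 between the doses. Adding a replicate block to these gave 9337 and 5, 17896 and 4, and 15932 and 6. A replicate block on the 4 control and MCT 270 samples gave 0 genes and 0 members. Across genes, control and MCT 270 samples that share a number did not deviate together (correlation 0.0152). The correlations between single arrays (-0.036 to 0.0407) add little, since most of those arrays were joined. The block lowered the SE at MCT 270 from 0.30 to 0.18 for Foxa1 and from 0.39 to 0.19 for Foxa2, neither called. Pairing by number was therefore not used in the main fit, and is not settled for single genes. With the scan as a block, 4729 genes and 3 members were called at MCT 270, and as a random block 18744 and 5 at MCT 330 and 16957 and 7 between the doses. Taking MCT 330 replicate 1 as a separate sample, an alternative chosen after seeing the data, gave 1748 genes at MCT 270, 13755 at MCT 330, and 11253 with 3 members between the doses. Normexp correction gave 520 genes and 0 members at MCT 270, and 7690 genes and 1 member at MCT 330. Without a dim-probe filter 3681 genes and 1 member were called at MCT 330 and 0 genes between the doses, and with only probes well above background on all arrays 409 genes at MCT 270 and 1 member between the doses. Leaving out each replicate in turn gave 3758 to 8431 genes and 0 to 2 members at MCT 330, 0 to 7158 genes between the doses and 0 genes at MCT 270, the lowest values without MCT 270 replicate 1. Where arrays count as separate samples the residual degrees of freedom rise, and the cause of the other changes was not tested. Signal over background limits Onecut1 and Prox1.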

Other observations

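The gap between Cebpa and Cebpb on one array was compared between groups, a measure chosen after the values were seen. On the log2 scale, Cebpa relative to Cebpb was 1.01 higher at MCT 270 than in the control and stood at -0.02 against the control at MCT 330. The exact permutation test at MCT 270 gave p = 0.333 (2 samples against 2, two-sided), the smallest that such a design allows. The value was higher in both MCT 270 samples (-1.53 and -0.59) than in both control samples (-1.85 and -2.30), and the MCT 330 sample was at -2.09.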
